A study of Mus musculus with 6 samples.

Results

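The genes of the circadian clock were examined in the hippocampus of p300-ifKO mice and control littermates. The group was a list of 10 genes, namely Arntl, Clock, Per1, Per2, Per3, Cry1, Cry2, Nr1d1, Nr1d2 and Dbp, and all of them were found by symbol among the 55471 genes of the deposited count table. Another 19 genes of the clock network (partners, D-box and E-box factors, kinases and ubiquitin ligases of the PER and CRY proteins) were read beside them. The study compared bulk hippocampal RNA of 3 p300-ifKO mice with that of 3 controls, with 1 library per mouse. All mice were on a C57BL/6 background (C57BL/6J in the methods of the study), were 3 to 6 months old, and received 5 intragastric doses of tamoxifen at 20 mg/mL in corn oil, given every other day. The methods of the study describe the mice of this comparison as males. In p300-ifKO mice, tamoxifen activates creERT2, a Cre recombinase driven by the Camk2a promoter, which recombines the floxed Ep300 alleles in excitatory forebrain neurons. Glia, interneurons and vessels keep the gene, and in bulk tissue fewer cells of a type and less RNA per cell cannot be told apart. The treatment protocol in the labels describes controls as creERT2-negative littermates, whereas the description of every control library names the driver. The hour at which tissue was collected and the lighting schedule are not given in the sources used here.

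The mammalian clock is a transcriptional feedback loop that runs in nearly every cell, hippocampal neurons and glia included. CLOCK and BMAL1 (the product of Arntl) bind E-boxes and activate the Per, Cry and Nr1d genes and Dbp, the PER and CRY proteins return to the nucleus and repress that activity, and the REV-ERB receptors (from Nr1d1 and Nr1d2) compete with ROR receptors at RORE sites, which puts Arntl in antiphase to the E-box genes. The acetyltransferases p300 and CBP are known coactivators of CLOCK:BMAL1, and samples taken at unlike hours differ in these genes without any genetic change.

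Promoter letters of the elements named above are shown first, for those genes whose window held them. Promoter windows were taken from the RefSeq table for GRCm38.p6, from 250 bases before to 50 bases after each start. An entry was found for 9 of the 10 clock genes, all but Per2, and for 14 of the 19 other genes. The E-box CACGTG was searched on both strands and was found for 2 of the 9 clock genes (Per1 and Cry1), against 7.15% of all promoters and 8.09% of all genes with a window. The E-box variant CACGTT was found for 3 of 9 (Cry1, Cry2 and Nr1d1), against 4.68% of promoters and 5.44% of genes. The D-box TTANGTAA, the element of the DBP family, was found for Per3 alone among the 9, against 2.32% of promoters and 2.72% of genes. The RORE, searched as A, any 2 bases, T, any base and then GGTCA, was found in the window of Arntl, 28 bases after the start, against 2.46% of promoters and 2.87% of genes. None of these motifs was found in the window of Dbp, and the cyclic AMP response element TGACGTCA was found for none of the 9, against 1.79% of promoters and 2.03% of genes. Below are the stretches with an E-box (capitals) from Per1 (chr11:69098754-69098813, + strand), Cry1 (chr10:85185095-85185154, - strand, with the variant on the opposite strand first) and Nr1d1 (chr11:98775378-98775437, - strand, the variant on the opposite strand), followed by the pair of D-boxes of Per3 (chr4:151044806-151044880, - strand) and the E-boxes of Ciart, a repressor of CLOCK:BMAL1 (chr3:95882259-95882358, - strand), each written 5′ to 3′ in the direction of the gene.
Per1: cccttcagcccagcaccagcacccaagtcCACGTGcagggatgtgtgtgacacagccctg
Cry1: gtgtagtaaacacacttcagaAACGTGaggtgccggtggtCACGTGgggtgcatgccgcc
Nr1d1: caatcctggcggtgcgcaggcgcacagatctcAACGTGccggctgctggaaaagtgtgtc
Per3: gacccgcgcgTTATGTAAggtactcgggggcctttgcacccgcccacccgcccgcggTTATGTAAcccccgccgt
Ciart: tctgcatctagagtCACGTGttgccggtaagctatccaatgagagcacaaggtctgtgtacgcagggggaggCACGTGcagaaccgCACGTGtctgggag
A match of letters is a description of the window and not a measured binding site.

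Libraries held between 23151568 and 28433823 counts. Ep300 had between 1474 and 2334 normalized counts (counts divided by the DESeq2 size factor of the library) in controls. It had 478, 1350 and 912 in p300-ifKO replicates 1, 2 and 3, without overlap and with replicate 2 nearest to the controls. Groups without overlap and lower in p300-ifKO mice were found for 3.15% of genes with a mean of at least 50. The log2 fold change of Ep300 was -0.97 ± 0.33 SE (adjusted p = 0.991, DESeq2 Wald test). Without p300-ifKO replicate 2 it was -1.36 (adjusted p = 0.000356, DESeq2 Wald test), and with length and GC offsets -0.83. The count covers the whole gene, so the recombined exon was not resolved. Esr1, part of whose coding sequence is carried by creERT2, had between 87.2 and 109 normalized counts in controls and between 2416 and 4217 in p300-ifKO mice. Markers of hippocampal principal neurons were abundant in every library (Slc17a7 between 31103 and 37383, Prox1 between 1604 and 2883 normalized counts). The 5 hypothalamic and pituitary markers summed to between 36.8 and 39.8 in controls and between 37.6 and 67.7 in p300-ifKO mice, highest in replicate 1. By log2 fold change 2 of the 5 were higher and 3 lower in p300-ifKO mice. Pomc was higher in every p300-ifKO mouse than in any control. Its means were low, 18.4 normalized counts in controls and 28.8 in p300-ifKO mice. No share of genes is set beside it, since the shares without overlap cover genes with a mean of at least 50. Libraries differed in a trend with exonic length that was strongest in p300-ifKO replicate 1: the Spearman correlation across 13614 genes between exonic length and the ratio of a library to the mean was 0.26, 0.22 and 0.57 in controls and -0.62, 0.57 and -0.39 in p300-ifKO mice, in replicate order. Genes are not independent replicates, and these values are given as descriptions.

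In no clock gene did the difference between p300-ifKO and control mice exceed the spread between mice by the test used, and the intervals below give the sizes that remain possible. None of the 10 genes passed the threshold (adjusted p under 0.05, DESeq2 Wald test over 32773 genes), against 0.0061% of all genes, which is 2 genes (Esr1 and Arsi, a neighbour of Camk2a). None reached an unadjusted p under 0.05 either, against 1.32% of all genes. By edgeR's quasi-likelihood test 2 genes were called as well, again with 0 of the 10 clock genes, against 0.0117% of 17131 genes, and that test gave adjusted p-values between 0.745 and 0.919 for them; none had an unadjusted p under 0.05 by this test, against 2.3% of all genes. In no clock gene were the normalized counts of the groups free of overlap, against 6.91% of genes with a mean of at least 50. The fold changes were small: 9 of 10 were below 0 on the log2 scale, against 50.6% of genes with a mean of at least 50, with a median of -0.089 and a range from -0.25 (Per2) to 0.30 (Dbp). This split depended on the scaling, since 7 of 10 were below 0 with length and GC offsets per library (41.2% of genes with a mean of at least 50) and 3 of 10 with 1 surrogate variable in the fit (49.8% of those genes). With the surrogate variable 0 of the 10 were called (background 0.00915%), and 0 reached an unadjusted p under 0.05 (background 0.604%).

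**Figure D1:**
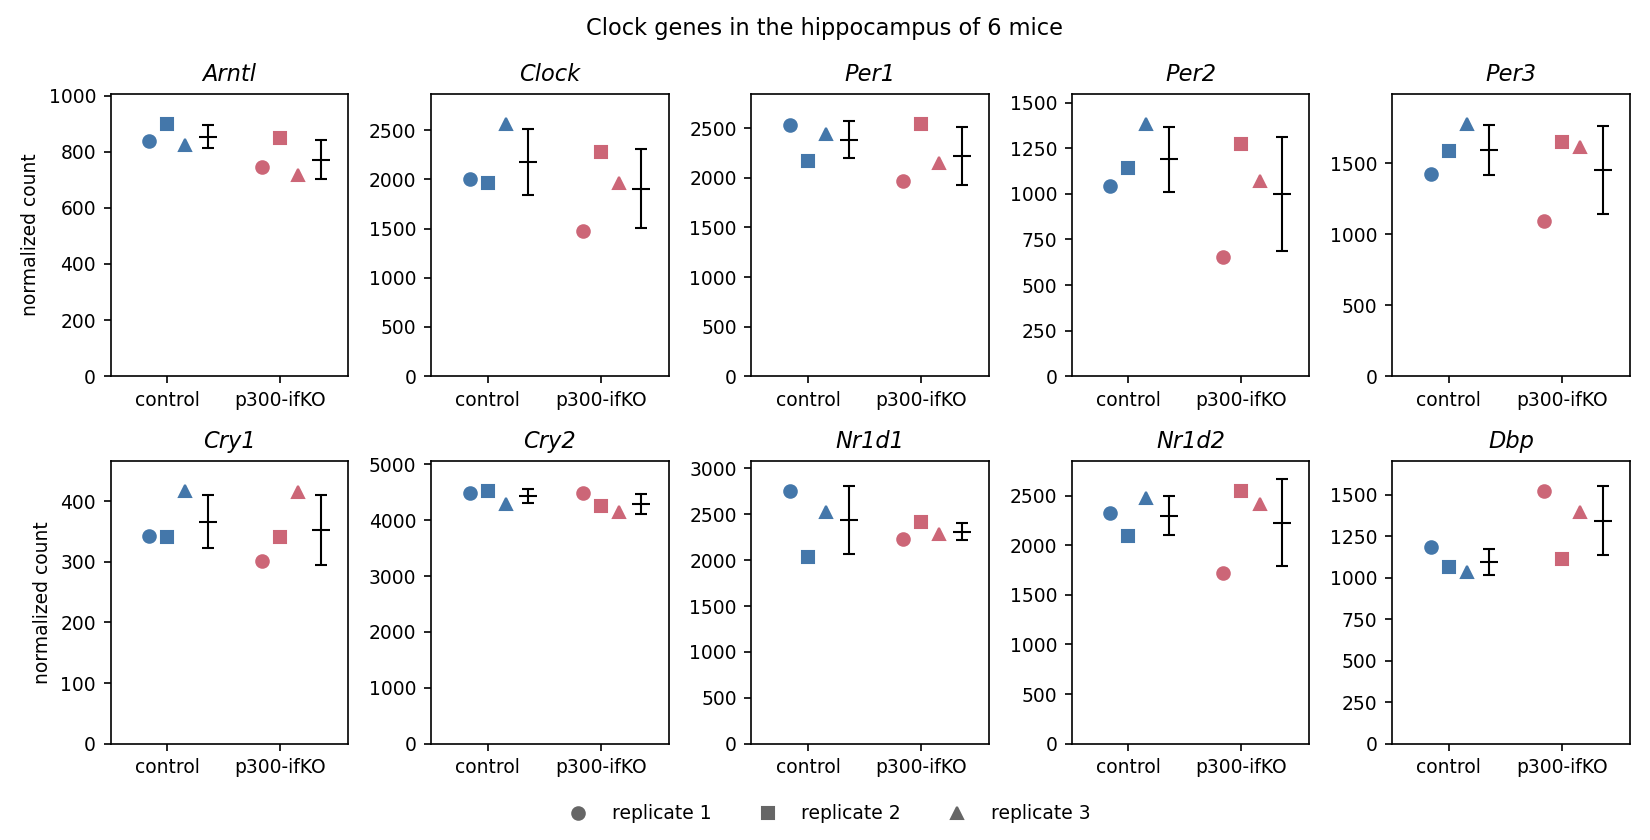
Normalized counts (y axes, from 0) of the 10 clock genes in each mouse, with the groups on the x axes, a symbol for each replicate number and, beside the points, the mean ± SD of 3 mice. The groups overlap in all 10 panels, and p300-ifKO replicate 1 has the lowest value in 6 of them.

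Arntl (ENSMUSG00000055116, chr7:113207465-113314126 on GRCm38) encodes BMAL1, the clock's indispensable activator. It had 837, 899 and 825 normalized counts in control replicates 1, 2 and 3 and 746, 850 and 717 in p300-ifKO replicates 1, 2 and 3. A pair of p300-ifKO mice lay below every control, and p300-ifKO replicate 2 lay inside the control range. The control mean was 854 ± 40.0 (SD, n = 3) and the p300-ifKO mean 771 ± 70.1 (SD, n = 3), a log2 fold change of -0.15 with a 95% interval from -0.41 to 0.12 (adjusted p = 0.991, DESeq2). With length and GC offsets the log2 fold change of Arntl was -0.029, and p300-ifKO replicate 1 lay inside the control range. Clock (ENSMUSG00000029238, chr5:76209868-76304792), the partner of BMAL1 and itself an acetyltransferase, had 2004, 1968 and 2565 normalized counts in controls and 1476, 2275 and 1962 in p300-ifKO mice. Control replicate 3 was the highest and p300-ifKO replicate 1 the lowest, while p300-ifKO replicate 2 lay between the controls and replicate 3 just below the lowest of them. The log2 fold change of Clock was -0.19 (95% interval from -0.58 to 0.19), and it was 0.042 with length and GC offsets and 0.051 with 1 surrogate variable. Npas2, a paralog that can replace CLOCK in the forebrain and one of the 19 other genes, had 958, 698 and 811 normalized counts in controls and 478, 748 and 688 in p300-ifKO mice. Its values overlapped through control replicate 2, and its log2 fold change of -0.37 (95% interval from -0.78 to 0.049, unadjusted p = 0.0842, adjusted p = 0.991, DESeq2) was the lowest of the 29 clock genes read.

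The Per genes encode the period proteins, which carry the repressor complex and respond quickly to light, glucocorticoids and neuronal activity. Per1 (ENSMUSG00000020893, chr11:69095217-69109960) had 2533, 2174 and 2444 normalized counts in controls and 1969, 2546 and 2152 in p300-ifKO mice, so that the highest and the lowest mouse were both p300-ifKO. Its log2 fold change was -0.10 (95% interval from -0.39 to 0.19). Per2 (ENSMUSG00000055866, chr1:91415982-91459324) had 1041, 1143 and 1385 normalized counts in controls and 655, 1272 and 1070 in p300-ifKO mice. The low mean of the p300-ifKO group, 999 ± 315 against 1190 ± 177 (SD, n = 3 each), was set by replicate 1, and the other p300-ifKO mice lay within the control range. The log2 fold change of Per2, -0.25 (95% interval from -0.73 to 0.23, adjusted p = 0.991, DESeq2), was -0.023 without that mouse. Per3 (ENSMUSG00000028957, chr4:151003652-151044665), whose loss alone leaves rhythms largely intact, had 1423, 1584 and 1780 normalized counts in controls and 1094, 1651 and 1614 in p300-ifKO mice. Here too p300-ifKO replicate 1 was the lowest and the others were in the control range. Its log2 fold change was -0.13 (95% interval from -0.51 to 0.25), -0.030 with length and GC offsets and 0.032 without p300-ifKO replicate 1.

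The cryptochromes are the strong repressors of CLOCK:BMAL1. Cry1 (ENSMUSG00000020038, chr10:85131700-85185064) had 342, 340 and 416 normalized counts in controls and 302, 340 and 415 in p300-ifKO mice. Controls and p300-ifKO mice nearly coincided apart from p300-ifKO replicate 1, and the log2 fold change was -0.056 (95% interval from -0.42 to 0.31). Cry2 (ENSMUSG00000068742, chr2:92403646-92434043) had 4484, 4517 and 4289 normalized counts in controls and 4483, 4258 and 4137 in p300-ifKO mice. It was the steadiest of the 10 genes, with a ratio of 1.09 between the highest and the lowest mouse, and its log2 fold change of -0.045 had the narrowest 95% interval, from -0.24 to 0.15. The exons of Cry2 overlapped the opposite-strand gene D930015M05Rik over 4.67% of their length.

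The REV-ERB receptors repress Arntl and are among the most strongly rhythmic E-box targets. Nr1d1 (ENSMUSG00000020889, chr11:98767932-98775333), which encodes REV-ERBα, had 2751, 2031 and 2529 normalized counts in controls and 2230, 2412 and 2289 in p300-ifKO mice. With size factors only, all p300-ifKO mice lay inside the control range, so the controls were the more dispersed group (SD of 369 against 93.2, n = 3 each). The log2 fold change was -0.077 (95% interval from -0.37 to 0.22), and 8.55% of its exonic length overlapped Thra on the opposite strand; a strand setting is not given, so whether their reads were counted apart is not known. Nr1d2 (ENSMUSG00000021775, chr14:18204054-18239127), which encodes REV-ERBβ, had 2329, 2094 and 2478 normalized counts in controls and 1726, 2545 and 2420 in p300-ifKO mice. The lowest and the highest mouse were both p300-ifKO, and the log2 fold change was -0.044 (95% interval from -0.40 to 0.31), or 0.053 with length and GC offsets and 0.15 with 1 surrogate variable. Of the 50-base stretches of Nr1d2, 5.13% also occur in AC170187.1, so part of its count is uncertain.

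Dbp (ENSMUSG00000059824, chr7:45705088-45710203) encodes a D-box activator whose transcript swings widely over the day and which carries clock output to other genes. It had 1182, 1064 and 1032 normalized counts in controls and 1521, 1113 and 1394 in p300-ifKO mice. A pair of p300-ifKO mice exceeded every control, and p300-ifKO replicate 2 lay within the control range. Control mice averaged 1093 ± 79.2 and p300-ifKO mice 1343 ± 208 (SD, n = 3 each), and the log2 fold change was 0.30 with a 95% interval from -0.019 to 0.61 (unadjusted p = 0.0651, adjusted p = 0.991, DESeq2; unadjusted p = 0.0626, adjusted p = 0.745, edgeR). Without p300-ifKO replicate 2 the log2 fold change was 0.42 (adjusted p = 0.0433, DESeq2), the single clock gene of the 10 that was called in that fit, in which 2.93% of all genes were called (1.54% as higher and 1.39% as lower in p300-ifKO mice). In that set of 5 libraries Arntl, Clock, Per1 and Dbp had groups without overlap, 4 of 10 clock genes, against 53.2% of all genes. Leaving out any other library left 1 of 10 without overlap: Dbp without control replicate 1 (14.6% of all genes), Nr1d1 without control replicate 2 (14.7%), Cry2 without control replicate 3 (11.8%) or p300-ifKO replicate 1 (10.8%), and Cry1 without p300-ifKO replicate 3 (9.48%). With all 6 libraries the log2 fold change of Dbp was 0.16 with length and GC offsets and 0.13 with 1 surrogate variable, neither past the threshold. Sphk2 on the opposite strand overlaps 18% of the exonic length of Dbp, and whether reads there were counted by strand is not known.

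Per kilobase of exonic length, the REV-ERB gene Nr1d1 (771 normalized counts per kb, mean of 6 mice) and Cry2 (690) were the most abundant clock genes, and their ranges over mice overlapped. Nr1d2 (419), Per1 (409) and Dbp (407) followed with ranges that overlapped one another, and all 6 mice had less of each than of Cry2. Per2 (187), Per3 (159) and Clock (149) formed the next overlapping run, below the range of Dbp. Arntl (108) and Cry1 (108) had the lowest levels, with overlapping ranges, and both ranges also overlapped those of Clock, Per3 and Per2.

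The other 19 genes of the network gave the same count, with 0 past the threshold and 0 at an unadjusted p under 0.05 (DESeq2; against 0.0061% and 1.32% of all genes). Of these, 13 had a log2 fold change below 0 and 6 above, with a median of -0.060. Under length and GC offsets 8 were below 0 and 11 above (median 0.011), and with 1 surrogate variable 6 were below and 13 above (median 0.019). The highest was Nfil3, which encodes the D-box repressor E4BP4, with 183, 206 and 204 normalized counts in controls and 291, 225 and 209 in p300-ifKO mice. Every p300-ifKO mouse exceeded every control, by a small margin for replicate 3, which held for 3.76% of all genes, and the log2 fold change of 0.29 (95% interval from -0.096 to 0.68) was not past the threshold. Hlf, a PAR bZIP activator related to Dbp, had 3975, 3906 and 4008 normalized counts in controls and 3351, 3659 and 3723 in p300-ifKO mice. Its groups did not overlap either, in the opposite direction (3.15% of all genes), with a log2 fold change of -0.15 (95% interval from -0.35 to 0.058). With length and GC offsets the groups overlapped for both Nfil3 and Hlf, with log2 fold changes of 0.15 and -0.021. Tef, the remaining PAR bZIP gene, lay between 10390 and 11177 normalized counts in all 6 mice, with a log2 fold change of -0.0041 whose sign differed between scalings. The E-box repressors Bhlhe40 (0.021) and Bhlhe41 (0.15), the CLOCK:BMAL1 repressor Ciart (0.20) and the RORE activators Rora (-0.20) and Rorb (-0.17) had log2 fold changes whose 95% intervals all included 0. The values of Rora and Rorb were 0.030 and 0.0073 with length and GC offsets. Gm43909 on the opposite strand overlaps 19% of the exonic length of Bhlhe41, and 11.9% of the 50-base stretches of Ciart also occur in Gm9176.

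**Figure D2:**
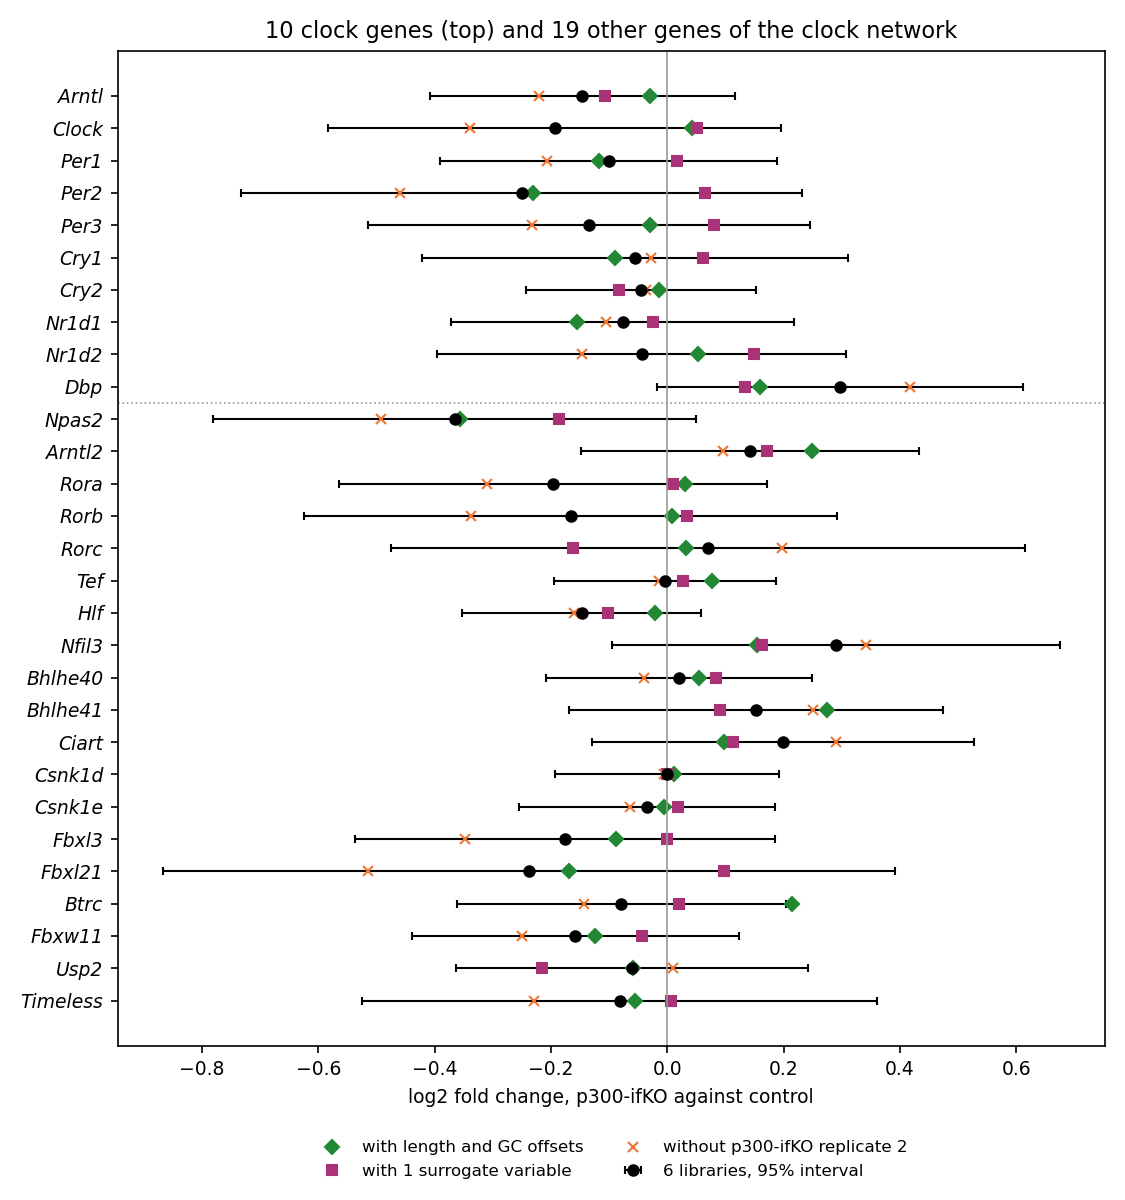
Log2 fold change of p300-ifKO against control (x axis) for the 10 clock genes, above the dotted line, and 19 other network genes (y axis), with 95% intervals from DESeq2 on 6 libraries and the values of 3 alternative fits. All 29 intervals include 0, and the values with 1 surrogate variable lie on the other side of 0 for 6 of the 10 clock genes.

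Fold changes were related to exonic length. Across 13614 genes the Spearman correlation between log2 fold change and exonic length was -0.58, across the 10 clock genes it was -0.68, and across all 29 clock genes read it was -0.39. With length and GC offsets it was -0.15 over all of the 13614 genes and 0.030 over the 10 clock genes. Among 20 bins of genes by length, Clock differed from the median of its bin by 0.014, Per3 by 0.0034, Nr1d2 by -0.0018 and Cry2 by 0.014 on the log2 scale. Larger distances from the bin median were those of Per2 (-0.20), Dbp (0.19) and Nr1d1 (-0.18) among the 10 clock genes. Those of the other 19 genes lay between -0.35 (Npas2) and 0.22 (Bhlhe41).

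**Figure D3:**
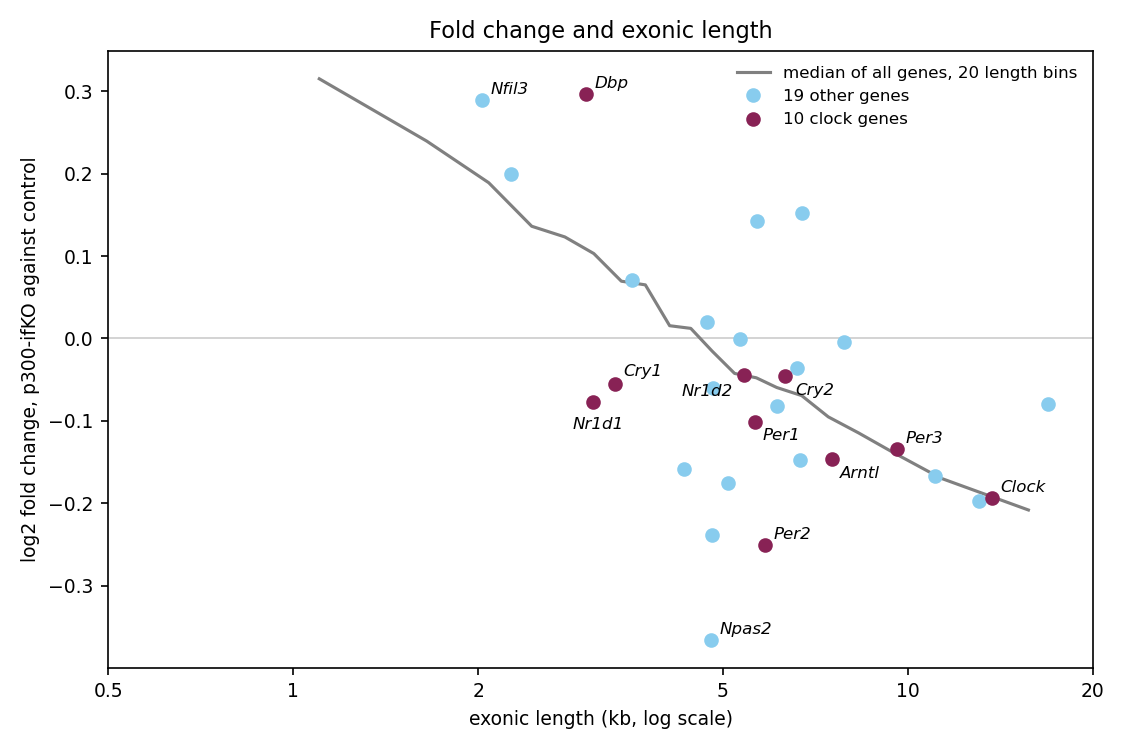
Log2 fold change of p300-ifKO against control (y axis) and exonic length in kb (x axis, log scale) for the 10 clock genes, the 19 other network genes and the medians of 20 length bins of all genes. Clock, Per3, Nr1d2 and Cry2 lie on the median line, Dbp lies above it, and Per2, Nr1d1 and Npas2 lie below it.

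The agreement between the 6 mice was then described gene by gene. The SD over mice of log2(normalized count + 1) had a median of 0.197 over the 10 clock genes and 0.193 over all genes. Per2 varied most, with a ratio of 2.11 between the highest and the lowest mouse and an SD above that of 89.1% of genes, and Cry2 varied least, at the 2.73rd percentile. With length and GC offsets the median SD was 0.131 for the clock genes and 0.155 for all genes, and the SD of Clock moved from the 70.8th to the 5.96th percentile whereas that of Per2 stayed high at the 92.3rd. The mouse behind most low values was p300-ifKO replicate 1, the lowest in 6 of 10 clock genes and in 40.3% of all genes. It was also the highest in 1 of 10 clock genes and in 39.3% of all genes. In that mouse Per2 was 0.70, Per3 0.46, Clock 0.45 and Nr1d2 0.38 log2 units below the mean of 6, whereas Dbp was 0.34 above it. With offsets Clock was 0.051 above the mean in the same mouse and Per2 remained 0.65 below it.

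**Figure D4:**
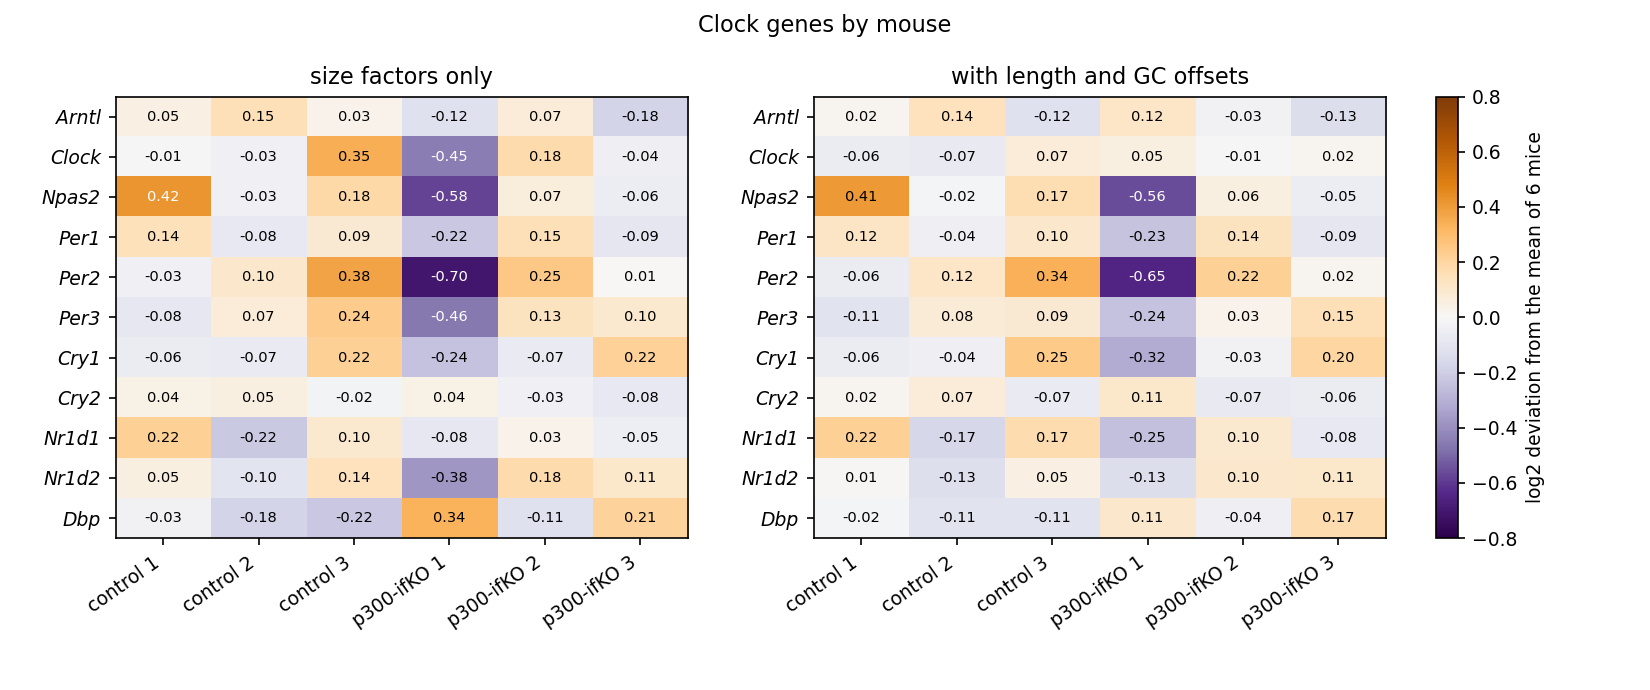
Deviation of log2(normalized count + 1) from the mean of 6 mice (colour and printed value) for 11 clock genes (rows) in each mouse (columns), with size factors only (left) and with length and GC offsets (right). p300-ifKO replicate 1 has the lowest Per2 and Npas2 on both sides, and its low value of Clock on the left is absent on the right.

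Mice taken at unlike phases would differ in activators against outputs, so the mean log2 level of Arntl, Clock and Npas2 minus that of Per1, Per2, Per3, Nr1d1, Nr1d2 and Dbp was computed per mouse. Relative to the mean of 6 mice this index was 0.11, 0.095 and 0.065 in controls and -0.13, -0.0019 and -0.14 in p300-ifKO mice. Every control was above every p300-ifKO mouse, with a difference of -0.18, and no p is given because the index is a score over chosen genes. With length and GC offsets the index of controls was 0.093, 0.057 and -0.067 and that of p300-ifKO mice 0.10, -0.085 and -0.10, so that the groups overlapped with a difference of -0.056. The ratio of Dbp to Arntl, which would be large where output is high and the activator low, was 1.41, 1.18 and 1.25 in controls and 2.04, 1.31 and 1.94 in p300-ifKO mice. The ratio of control replicate 1 exceeded that of p300-ifKO replicate 2, and the remaining p300-ifKO mice were above all controls. This order depended on the scaling. With length and GC offsets Dbp and Arntl deviated from the mean of 6 mice by 0.11 and 0.12 log2 units in p300-ifKO replicate 1. Its ratio was then below that of control replicate 3 (-0.11 and -0.12), and p300-ifKO replicate 3 had the highest ratio (0.17 and -0.13). With size factors only, other outputs did not follow Dbp. The ratio of Per2 to Arntl was 1.24, 1.27 and 1.68 in controls and 0.878, 1.5 and 1.49 in p300-ifKO mice. It was lowest in p300-ifKO replicate 1, the mouse with the highest Dbp ratio by the same values. The ratio of Nr1d1 to Arntl was 3.29, 2.26 and 3.07 in controls and 2.99, 2.84 and 3.20 in p300-ifKO mice, all of them within the control range. With offsets Nr1d1 and Arntl deviated by -0.25 and 0.12 log2 units in p300-ifKO replicate 1, a ratio below that of every control. The lowest control ratio was that of replicate 2 (-0.17 and 0.14).

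Across the 6 mice, Arntl was compared with each of 6 genes known as targets of CLOCK:BMAL1. Of these, Per1 and Nr1d1 had an E-box or its variant in the promoter window, and Per3, Nr1d2 and Dbp did not. Per2 had no window to search. Dbp had a Pearson's r of -0.86 with Arntl (exact permutation p = 0.0431, 0.258 after Benjamini-Hochberg adjustment over 6 relations) and a Spearman's rho of -0.60 (exact permutation p = 0.242, adjusted p = 0.725). Leaving out the mice farthest from the median of Arntl, p300-ifKO replicates 1 and 3, gave an r of -0.14, so the relation rested on them. For Per1, Per2, Per3, Nr1d1 and Nr1d2 Pearson's r lay between 0.00011 and 0.54, Spearman's rho between -0.086 and 0.60, and no relation passed the adjustment. Without the same 2 mice their r was -0.84, -0.35, -0.19, -0.90 and -0.81 in that order, so these signs rested on those mice as well. With length and GC offsets Nr1d2 had the strongest relation (r = -0.90, exact permutation p = 0.025, adjusted p = 0.15; rho = -0.89, exact permutation p = 0.0333, adjusted p = 0.2; r = -0.80 without control replicate 2 and p300-ifKO replicate 3), while that of Dbp was -0.18. All 6 relations had a negative r with offsets. Without control replicate 2 and p300-ifKO replicate 3 that of Dbp was 0.98, so its sign rested on these mice, and the others stayed negative. No value within a group is given, since each group holds 3 mice.

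The genes whose pattern over the 6 mice was most like that of Dbp were Vasp, Timm9, Tysnd1, Ebna1bp2 and Ttll1, with Pearson's r between 0.992 and 0.997 over 6 mice. As many as 259 of 13613 genes had an r above 0.95 with Dbp, and none of the other 9 clock genes had a positive r with it, although with length and GC offsets Clock (0.33), Nr1d2 (0.14) and Cry2 (0.074) did. The 5 genes most like Dbp had an r between 0.833 and 0.991 with offsets. The genes most like Arntl were Rnf157, Camta2, Mras, Gm44243 and Crtc1 (r between 0.967 and 0.973), and 16 genes had an r above 0.95. With length and GC offsets Rnf157 and Crtc1 kept r above 0.95, with 0.957 and 0.963, and the other genes of the Arntl list had an r between 0.15 and 0.435. These correlations are descriptions over 6 libraries that share the length trend.

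Genes that follow cues able to shift the clock were read in the same fit. Of 4 glucocorticoid responsive genes none passed the threshold or had an unadjusted p under 0.05 (DESeq2), with log2 fold changes from -0.67 (Zbtb16) to 0.055 (Fkbp5). Of 5 temperature responsive genes and 7 immediate early genes none did either, with log2 fold changes from -0.080 to 0.34 and from -0.28 to 0.21. Without p300-ifKO replicate 2, the mouse with the most Zbtb16, Zbtb16 was called (-1.69, adjusted p = 0.0337, DESeq2), against 2.93% of all genes. In that fit 1 temperature responsive and 1 immediate early gene had an unadjusted p under 0.05 (DESeq2), against 12.8% of all genes. Zbtb16 lay between 216 and 1623 normalized counts, with both extremes in p300-ifKO mice. Crebbp, the gene for CBP, the paralog of p300, had a log2 fold change of -0.055 (95% interval from -0.26 to 0.15), or 0.11 with length and GC offsets. Summed markers of excitatory neurons, interneurons, oligodendrocytes, microglia, endothelium, choroid plexus, thalamus and blood overlapped between groups. Those of astrocytes, a cell type with a clock of its own, were between 37965 and 39502 normalized counts in controls and between 35473 and 36823 in p300-ifKO mice: 3 of the 5 markers were lower, 0 passed the threshold and Slc1a3 had an unadjusted p of 0.0316 (DESeq2). The gap rested on Slc1a3, since without it the sums lay between 17628 and 18874 in controls and between 18410 and 19468 in p300-ifKO mice and overlapped. Their part in the clock gene values was not tested.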

How the data were processed

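RNA of the hippocampus of 6 mice was sequenced by the authors as single-end reads of 50 bases. Per the submitters' processing notes and the study's methods, adapters were trimmed with Trim Galore (0.6.4) and reads were aligned with STAR (2.6.1) to GRCm38. Reads of low mapping quality were left out and the rest were counted per gene. A strand setting is not given in the sources used here. The deposited table held raw counts, not normalized, and columns were matched to samples by their labels; 0 per-sample columns were unused. Total counts were between 23151568 and 28433823. Groups and replicate numbers came from the sample titles, and each library is 1 mouse.

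Identifiers of 55144 of 55471 genes (99.41%) matched GENCODE M21, which gave symbols and coordinates. p300-ifKO was compared with control by DESeq2 (1.42.0, R 4.3.3), the tool of the study, with a two-sided Wald test, median-of-ratios size factors, no covariate and Benjamini-Hochberg adjustment over 32773 genes. Spread, overlap, the index and likeness used log2(normalized count + 1) or normalized counts, the gene-wide summaries of these over genes with a mean of at least 50. Intervals are 95% intervals. The alternatives were the edgeR quasi-likelihood test (4.0.16, with filterByExpr or without a filter), TMM factors, a minimum of 10 counts in 3 libraries, a replicate block, a threshold of 0.1, no independent filtering, 1 surrogate variable (sva 3.50.0), smooth length and GC offsets per library (mgcv 1.9.3) and leaving out each library. Correlations over mice were tested by exact two-sided permutation (scipy 1.17.1). The scripts were tested on simulated data. Named genes were all 10 clock genes, preset genes and the extremes of the 19 others, the checks of the labels, extremes of the cue lists and the 5 genes most like Dbp and Arntl; Slc17a7, Prox1, Pomc and Slc1a3 stand for marker lists, and the astrocyte sum without Slc1a3 was added after seeing the data. The clock genes, lists and alternatives were chosen with earlier results of these data known.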

Additional observations from a re-analysis of the deposited data

How the results depend on the processing

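No clock gene of the 10 was called in any of the alternatives with 6 libraries, and Dbp was called once among the fits that left out 1 library, so that the number of clock genes called lay between 0 and 1 in these fits. The number of all genes called was 4 with the replicate block and between 2 and 938 when 1 library was left out, the highest without p300-ifKO replicate 2. Between mice of the same replicate number the correlations of deviations were 0.37, -0.37 and 0.16 for numbers 1, 2 and 3. These values cannot decide whether the numbers pair the mice, because the libraries also differ in the trend with exonic length. The replicate block changed the call of no named gene. The number of clock genes with groups free of overlap lay between 1 and 4 when 1 library was left out, against between 9.48% and 53.2% of all genes.

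Signs were less stable than calls. Over 80 fold changes of the 10 clock genes in alternatives with 6 libraries 8 had the opposite sign, and over 60 with 1 library left out 6 did; the cause was not tested. With 1 surrogate variable the log2 fold changes were 0.051 (Clock), 0.016 (Per1), 0.066 (Per2), 0.080 (Per3), 0.061 (Cry1), 0.15 (Nr1d2), 0.0095 (Rora), 0.033 (Rorb) and 0.027 (Tef). With length and GC offsets they were 0.042 (Clock), 0.053 (Nr1d2), 0.030 (Rora), 0.0073 (Rorb), 0.077 (Tef) and 0.11 (Crebbp), and the index difference was -0.056. Tef was 0.0012 with edgeR, 0.0071 with TMM factors and 0.0070 in edgeR without a filter. Leaving out 1 library gave ranges from -0.23 to 0.032 for Per3, from -0.19 to 0.049 for Cry1, from -0.19 to 0.021 for Nr1d1, from -0.15 to 0.11 for Nr1d2, from -0.34 to 0.053 for Rorb, from -0.023 to 0.027 for Tef and from -0.041 to 0.052 for Bhlhe40. Ep300 was past the threshold with 1 surrogate variable (-0.48, adjusted p = 0.00127) and without p300-ifKO replicate 2 (-1.36, adjusted p = 0.000356), both by DESeq2. With 3 mice per group the precision differed between genes, with 95% intervals on the log2 scale from -0.24 to 0.15 for Cry2 and from -0.73 to 0.23 for Per2.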
